A study of Mus musculus with 12 samples.

Results

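The genes described here encode proteins that neutrophils carry in their granules or cytosol. They are S100a8 and S100a9 (calprotectin), Camp, Ngp, Ltf and Mmp8 (specific granule proteins), and Mpo and Elane (azurophil granule enzymes). The 8 genes were chosen by their log2 differences between NP+tau and NP liver, which were known beforehand, so the liver differences below are a description with no test, and nothing is supported with them. The muscle values were not used for the choice of the genes, but per the methods both tissues were taken from the same animals, so muscle is not an independent set of mice. Each gene had 1 probe set with a single gene symbol, so 8 probe sets of 45101 on the array are described. The array names 18194 genes in this way.

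The study asked whether taurine given to pregnant mice leaves a trace in gene expression of the offspring. Liver and quadriceps muscle of 4-week-old C57BL/6 offspring were measured on Affymetrix mouse expression arrays, which are read by the brightness of hybridised probes. The NP+tau dams were fed a normal protein diet with 20% casein and were given 1% taurine in the drinking water during gestation. The NP dams were fed the same diet with 20% casein and were given plain drinking water. The chow itself had no taurine that could be detected. There were 3 samples per diet group in each tissue. According to the methods every pup had a dam of its own, and p-values measure the spread between these samples only. Values are log2 RMA expression, a background-corrected and quantile-normalised measure of probe brightness. A difference of 1 is thus a 2-fold difference. Liver and muscle arrays were normalised apart, so levels are compared within a tissue only.

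Neutrophils are short-lived white blood cells that are made in bone marrow and are the first to enter an infected or injured tissue. Their granules are filled in order as the cell matures: azurophil granules with myeloperoxidase and elastase in promyelocytes, then specific granules with lactoferrin and cathelicidin, and calprotectin accumulates in the cytosol. The granule mRNAs are mostly made in the marrow and are low in circulating cells, whereas calprotectin mRNA persists in mature neutrophils. In bulk tissue, fewer cells of a type and less RNA per cell cannot be told apart.

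The tissues matched their labels. The hepatocyte marker Alb lay between 14.95 and 15.05 in the 6 livers, and the muscle markers Ckm and Acta1 lay between 14.56 and 14.67 and between 14.85 and 14.91 in the 6 muscles. The 8 listed hepatocyte genes kept averaged 13.74, 13.70 and 14.03 in NP+tau livers 1, 2 and 3. They averaged 13.46, 14.02 and 13.96 in NP livers, lowest in NP 1. Liver NP+tau 1 stood apart from the other livers, with a median absolute deviation of 0.450 from the median array, against 0.0769 to 0.169 in the other 5. Muscle arrays lay between 0.0746 and 0.188. Liver NP+tau 1 also had the highest mean of the 8 listed skeletal muscle genes kept in liver, at 5.58, against 4.59 to 4.69 in the other livers. The sexes were not balanced. Eif2s3y, a Y-linked gene, was at 3.78, 8.55 and 8.57 in NP+tau livers and at 3.61, 3.64 and 3.58 in NP livers, and NP+tau 2 and 3 were also high for it in muscle. NP muscles were at 3.49, 3.71 and 3.48. According to the methods each group was made up of both sexes, but no NP sample of either tissue was high for this gene. Diet group and sex are thus partly confounded. With the level of Xist, a gene of the inactive X chromosome, as a covariate, the median difference of the 8 genes was -1.69 in liver and -0.29 in muscle, where 0 of the 8 were called. In each tissue NP+tau 1 was the only NP+tau sample low for Eif2s3y, so this fit largely sets that 1 array against NP. In liver it is the array that stood apart, and nothing on sex or diet is read from the fit.

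The start sites of S100a8 and S100a9 lie 26650 bases apart on chromosome 3, and those of Camp, Ngp and Ltf lie within 1.17 Mb on chromosome 9. The 250 bases upstream of the start site are shown for 4 genes that stand for the 3 roles (RefSeq, GRCm38.p6, 5′ to 3′ on the strand of the gene). Capitals mark GAGGAAGT, a motif of the myeloid factor PU.1, TTGCNNAA, a motif of the C/EBP factors that drive granule genes, and TATAA, each on either strand.
S100a8 promoter, chr3:90668821-90669070, plus strand: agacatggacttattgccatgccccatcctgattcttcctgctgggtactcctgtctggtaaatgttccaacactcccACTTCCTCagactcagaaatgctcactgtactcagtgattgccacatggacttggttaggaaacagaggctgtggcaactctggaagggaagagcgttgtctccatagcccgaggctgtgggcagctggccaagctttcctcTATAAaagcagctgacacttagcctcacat
S100a9 promoter, chr3:90695722-90695971, minus strand: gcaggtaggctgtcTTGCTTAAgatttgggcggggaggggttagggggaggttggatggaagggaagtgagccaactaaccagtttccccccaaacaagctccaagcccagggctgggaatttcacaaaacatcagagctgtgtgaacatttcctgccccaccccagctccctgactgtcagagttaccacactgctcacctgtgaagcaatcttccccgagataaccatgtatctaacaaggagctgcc
Ngp promoter, chr9:110419558-110419807, plus strand: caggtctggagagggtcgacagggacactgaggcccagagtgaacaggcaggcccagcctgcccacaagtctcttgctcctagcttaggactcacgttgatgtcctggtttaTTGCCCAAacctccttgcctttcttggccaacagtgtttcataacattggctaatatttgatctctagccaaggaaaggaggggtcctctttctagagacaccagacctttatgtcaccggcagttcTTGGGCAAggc
Mpo promoter, chr11:87793534-87793783, plus strand: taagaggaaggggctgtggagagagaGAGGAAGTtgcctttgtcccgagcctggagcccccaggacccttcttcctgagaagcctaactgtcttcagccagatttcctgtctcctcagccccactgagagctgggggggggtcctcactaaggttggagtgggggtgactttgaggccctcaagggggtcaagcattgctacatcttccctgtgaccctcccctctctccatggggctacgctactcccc
The letters were chosen after the sequences had been seen, and the motifs do not overlap one another. GAGGAAGT was found in 4 of the 8 promoters (S100a8, Mmp8, Mpo and Elane), against 2.44% of 32851 promoters of the same length. In S100a8 it lay from -172 to -165 on the minus strand, and in Mpo from -224 to -217 on the plus strand, counted from the start site. TTGCNNAA was found in 4 of the 8 (S100a9, Ngp, Ltf and Mmp8), against 9.56% of all promoters. Ngp held it at -138 to -131 and again at -11 to -4, and S100a9 at -236 to -229. TATAA was found in S100a8 at -30 to -26 and in Elane, against 22.8% of all promoters. A match is a description of the letters and not a site.

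In liver, the calprotectin genes had the widest difference between the groups. S100a8 and S100a9 are the small and the large subunit of calprotectin, a calcium- and zinc-binding dimer that makes up much of the neutrophil cytosol. S100a8 (probe set 1419394_s_at, a type that may detect more than 1 transcript) was at 6.52, 5.49 and 5.87 in NP+tau livers and at 12.75, 8.74 and 8.81 in NP livers, in the order of replicates 1, 2 and 3 as in all lists below. No NP+tau liver reached the lowest NP liver, and the gap between the groups was 2.23. NP 1 lay 3.98 above the mean of NP 2 and NP 3, which differed from each other by less than the spread among NP+tau livers. The mean was 5.96 ± 0.52 in NP+tau and 10.10 ± 2.30 in NP (SD, n = 3 each). The difference was -4.14 (SE 1.04), or 17.7-fold lower in NP+tau, and -2.82, or 7.05-fold lower, without NP 1.

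S100a9 (1448756_at) followed the same course, at 6.30, 5.90 and 5.93 in NP+tau livers and at 12.48, 8.55 and 8.58 in NP livers. The 6 livers fell in the same order for both subunits, with NP 1 highest and NP+tau 2 lowest. The difference was -3.82 (SE 1.01), and -2.52 without NP 1. The NP+tau livers differed by 0.40 at most, and the NP livers by 3.92, so that most of the spread was within the NP group.

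Of the specific granule genes, Ngp, which encodes neutrophilic granule protein, had the widest difference. Ngp (1418722_at) was at 6.07, 5.87 and 5.54 in NP+tau livers and at 11.27, 7.65 and 7.74 in NP livers. The groups did not overlap, and the difference was -3.06 (SE 0.92), or 8.36-fold lower in NP+tau. Without NP 1 it was -1.87. Camp (1419691_at), the antimicrobial peptide cathelicidin, was at 5.27, 4.94 and 4.63 in NP+tau livers and at 8.80, 6.44 and 6.29 in NP livers. Its groups did not overlap either, with a difference of -2.23 (SE 0.65) and of -1.42 without NP 1. Ltf (1450009_at), the iron-binding lactoferrin, was at 5.23, 5.20 and 4.93 in NP+tau livers and at 8.77, 6.10 and 5.67 in NP livers. The gap between its groups was 0.44, the smallest of the 5 genes whose groups were apart, and the difference was -1.73 (SE 0.75), or -0.77 without NP 1.

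Mmp8 (1449366_at), neutrophil collagenase, was high in a single liver. It was at 4.72, 3.97 and 4.08 in NP+tau livers and at 6.85, 4.07 and 4.25 in NP livers. The groups overlapped, and the difference of -0.80 (SE 0.72) was 0.10 without NP 1. Of its 6 values, the 4 other than those of NP+tau 1 and NP 1 lay under 4.60, the limit that the filter set on the highest value of a probe set.

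Of the azurophil enzymes, Mpo differed more than Elane in liver. Mpo (1415960_at), myeloperoxidase, which makes hypochlorous acid, was at 5.15, 4.58 and 4.69 in NP+tau livers and at 7.01, 4.74 and 6.34 in NP livers. NP 1 and NP 3 were high and NP 2 lay among the NP+tau livers, and the difference was -1.22 (SE 0.55). It was -0.73 without NP 1 and -1.87 without NP 2. Elane (1422928_at), neutrophil elastase, was at 5.25, 5.30 and 4.90 in NP+tau livers and at 5.57, 4.95 and 5.62 in NP livers. NP 3 was the highest and NP+tau 3 the lowest, the groups overlapped, and the difference was -0.23 (SE 0.24). It was -0.13 without NP 1, -0.45 without NP 2 and -0.11 without NP 3. Elane was the only one of the 8 genes for which NP 1 was not the highest liver.

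**Figure D1:**
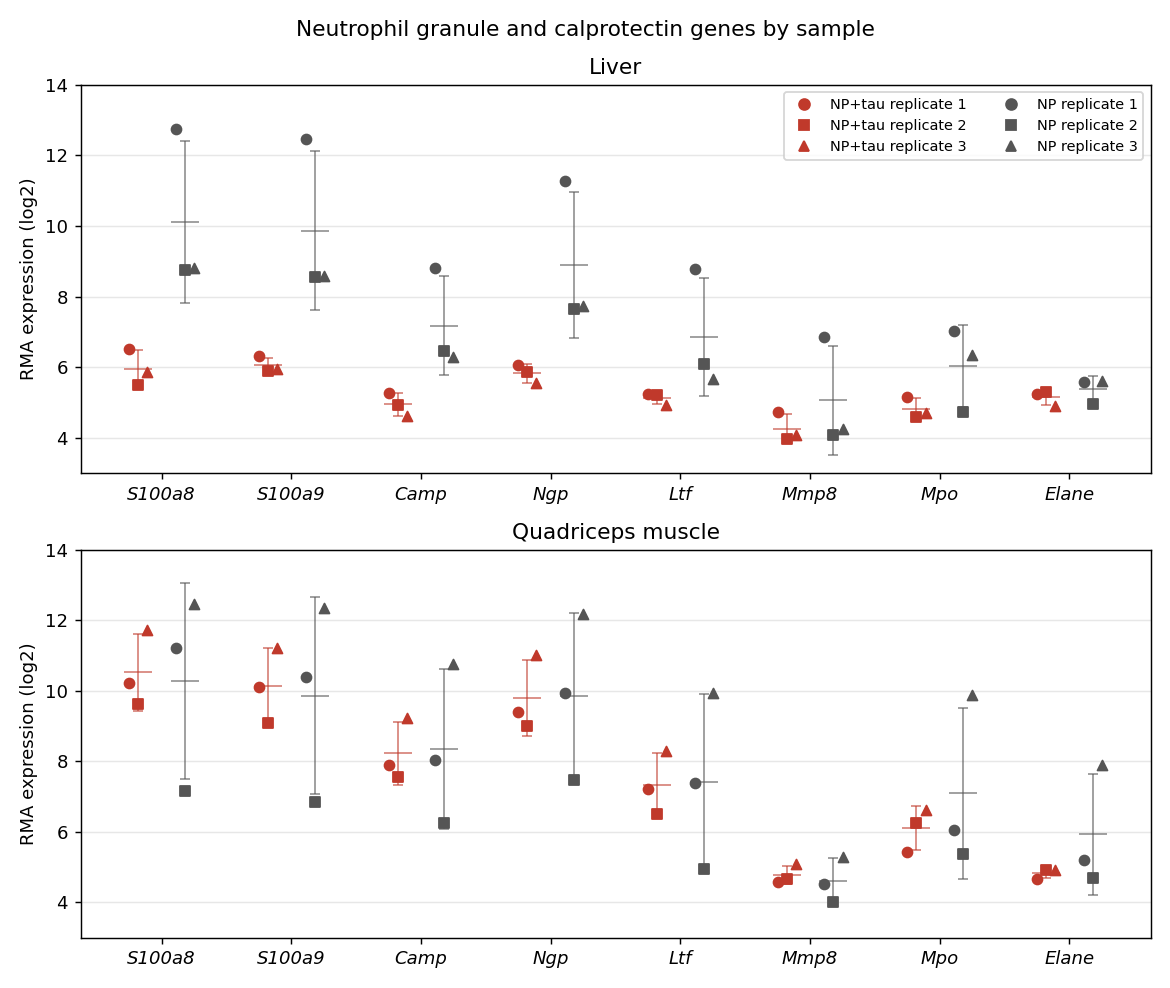
RMA expression (log2, vertical axis) of the 8 genes in each liver (upper panel) and muscle (lower panel), with NP+tau left of NP. Points are single samples, and bars are group means ± SD (n = 3). In liver the 3 NP+tau values of S100a8 lie between 5.49 and 6.52 and the NP values between 8.74 and 12.75, whereas in muscle the NP+tau values (9.61 to 11.73) lie inside the NP range (7.15 to 12.46).

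All 8 genes passed the filter on dim probe sets in liver, Mmp8 through NP+tau 1 and NP 1 only. In 5 of the 8 (S100a8, S100a9, Camp, Ngp and Ltf) every NP+tau liver lay below every NP liver. Over the 29274 probe sets kept, 9.11% had no overlap with NP+tau lower. Since the liver values chose the genes, nothing is read from this count. All 8 differences were below 0, against 54.2% of all probe sets kept, and their median was -1.98, against -0.039 over all probe sets. NP 1 was the highest liver for 7 of the 8, and the lowest liver was NP+tau 2 for 4 and NP+tau 3 for 4. No probe set of the 29274 in liver had an adjusted p under 0.05 in the fit with limma, and 1372 (4.69%) had an unadjusted p under 0.05.

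The genes varied together across the livers, as a description over 6 samples that share NP 1 as their highest point. Pearson's r was 0.997 between S100a8 and S100a9 and also 0.997 between S100a9 and Ngp. Elane followed least, with r between 0.50 (Ltf) and 0.83 (Mpo).

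In muscle, no difference between the groups was found for any of the 8 genes, and the spread between animals was wide. S100a8 was at 10.21, 9.61 and 11.73 in NP+tau muscles and at 11.20, 7.15 and 12.46 in NP muscles. NP 3 was the highest and NP 2 the lowest muscle, so the NP+tau values lay within the NP range. The mean was 10.52 ± 1.09 in NP+tau and 10.27 ± 2.78 in NP (SD, n = 3 each), a difference of 0.25 (SE 1.31, 95% interval -2.84 to 3.34, limma adjusted p = 0.957). The interval is wide enough to hold a difference of either sign of several fold.

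S100a9 was at 10.12, 9.09 and 11.21 in NP+tau muscles and at 10.39, 6.85 and 12.35 in NP muscles. Its difference of 0.28 (SE 1.31, limma adjusted p = 0.952) was as small beside the spread as that of its partner subunit. The 6 muscles fell in one order (NP 3, NP+tau 3, NP 1, NP+tau 1, NP+tau 2, NP 2) for 5 of the 8 genes, S100a8, S100a9, Camp, Ngp and Ltf. Neighbours in the middle of this order were close, such as NP+tau 1 and NP 1 at 10.12 and 10.39 for S100a9.

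The specific granule genes kept the same picture. Ngp was at 9.39, 8.99 and 11.02 in NP+tau muscles and at 9.95, 7.46 and 12.17 in NP muscles. Its difference was -0.059 (SE 1.14, 95% interval -2.74 to 2.63, limma adjusted p = 0.988). Camp was at 7.88, 7.56 and 9.24 in NP+tau muscles and at 8.04, 6.25 and 10.75 in NP muscles, and Ltf was at 7.20, 6.49 and 8.29 in NP+tau muscles and at 7.39, 4.93 and 9.93 in NP muscles. The groups overlapped for both, with differences of -0.12 for Camp (limma adjusted p = 0.974) and -0.090 for Ltf (limma adjusted p = 0.983). Mmp8 was near the filter limit again, at 4.59, 4.66 and 5.08 in NP+tau muscles and at 4.52, 4.00 and 5.29 in NP muscles, with a difference of 0.17 (SE 0.33, limma adjusted p = 0.871).

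The azurophil enzymes were high in 1 muscle only. Mpo was at 5.42, 6.25 and 6.63 in NP+tau muscles and at 6.04, 5.36 and 9.87 in NP muscles. NP 3 lay 4.17 above the mean of NP 1 and NP 2, and the other 5 muscles differed by 1.27 at most. The difference was -0.99 (SE 1.10, 95% interval -3.60 to 1.61, limma adjusted p = 0.775), and 0.40 without NP 3. Elane was at 4.68, 4.92 and 4.91 in NP+tau muscles and at 5.20, 4.70 and 7.88 in NP muscles. Its difference of -1.09 (SE 0.76, limma adjusted p = 0.712) was -0.12 without NP 3.

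**Figure D2:**
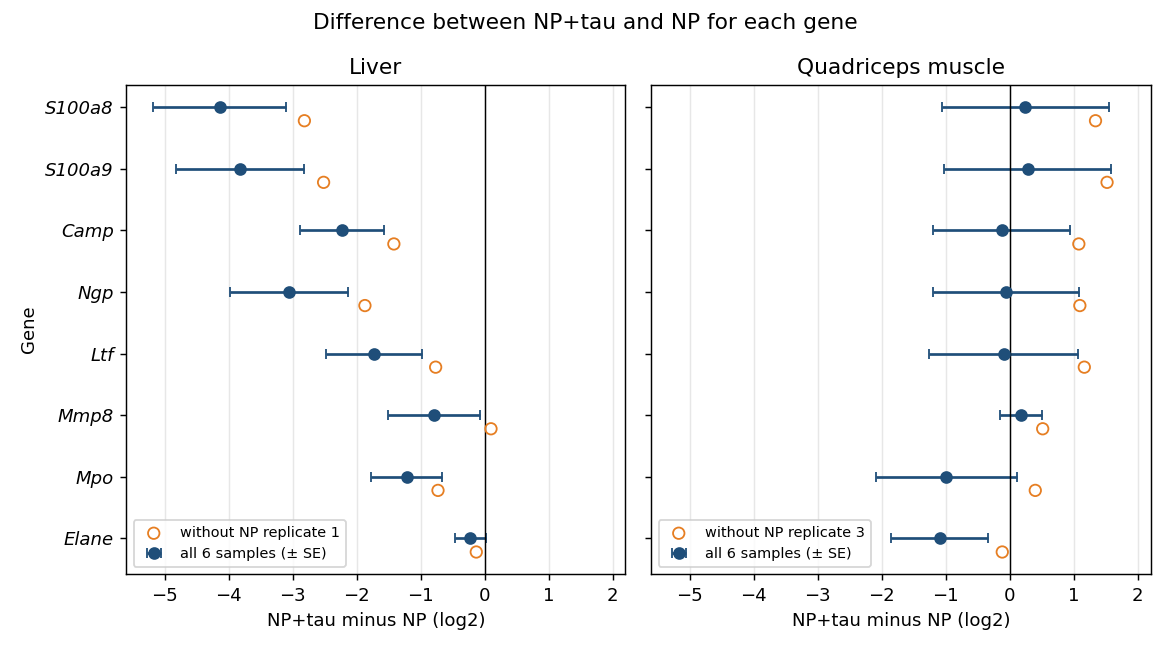
Difference of NP+tau minus NP (log2, horizontal axis) for each of the 8 genes, liver left and muscle right. Filled points are the differences over all 6 samples with their SE, and open points leave out NP 1 in liver or NP 3 in muscle. S100a8 stands at -4.14 in liver and at 0.25 in muscle, and Mmp8 in liver moves to 0.10 without NP 1.

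All 8 genes passed the filter in muscle, and 0 of the 8 were called, as were 0 of the 29274 probe sets tested (0%). Unadjusted p-values of the 8 ran from 0.193 to 0.960, so that 0 of the 8 were under 0.05, against 6.12% of all probe sets. The groups overlapped for all 8, whereas 15.1% of all probe sets had no overlap in either direction. The median difference of the 8 was -0.074, against 0.013 over all probe sets, with 5 below 0 and 3 above. This median turned with single animals, to 1.09 without NP 3 and to -1.29 without NP 2. NP 3 was the highest muscle for all 8 genes and NP 2 the lowest for 7. The difference between the tissues was not tested.

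Across the muscles the calprotectin and specific granule genes varied together, and the azurophil enzymes followed them less, as a description over 6 samples. S100a8 and S100a9 had r = 0.989 and Ngp and Ltf had r = 0.993. Mpo and Elane had r = 0.972 with each other. Their r with the other genes ran from 0.61 (S100a8 and Elane) to 0.89 (Camp and Mpo). For Elane the second highest muscle was NP 1 (5.20), and the other 4 lay between 4.68 and 4.92.

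Of the 4 other azurophil genes kept, 3 were also highest in muscle NP 3, Gusb by little (7.36, against 7.18 in NP+tau 3). Ctsc was highest in NP+tau 3 (9.38, against 9.33 in NP 3). Prtn3, proteinase 3, was at 5.55, 5.83 and 6.20 in NP+tau muscles and at 5.83, 4.73 and 9.03 in NP muscles. Ctsg, cathepsin G, was at 4.93, 5.24 and 5.04 in NP+tau muscles and at 5.62, 4.74 and 7.97 in NP muscles. Ms4a3, a gene of granulocyte precursors, reached 6.23 in NP 3 and lay between 4.03 and 4.78 in the other 5 muscles. Of the other specific and gelatinase granule genes kept, 11 of 13 had NP 3 as their highest muscle. Of the 8 neutrophil cytosol and NADPH oxidase genes kept, 2 were highest in NP 3 and 5 in NP+tau 3. No difference between the groups was found for the genes of these lists (limma adjusted p = 0.826 for Prtn3, 0.712 for Ctsg and 0.711 for Ms4a3).

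Muscle NP 3 carried bone and cartilage mRNA as well. Ibsp, bone sialoprotein, was at 3.80, 9.58 and 6.23 in NP+tau muscles and at 3.59, 3.31 and 10.99 in NP muscles. Col2a1, cartilage collagen, was at 5.99, 6.65 and 6.07 in NP+tau muscles and at 5.74, 5.68 and 10.86 in NP muscles. All 9 bone and cartilage genes kept had their highest value in NP 3, and their mean was 4.76, 6.18 and 5.29 in NP+tau muscles and 4.64, 4.57 and 7.80 in NP muscles. NP+tau 2, the muscle with the second highest Ibsp, was the fifth of the 6 for S100a8, S100a9, Camp, Ngp and Ltf and the third for Mmp8, Mpo and Elane. With the Ibsp level as a covariate the median difference of the 8 genes was -0.25, and with NP 3 and NP+tau 2 both left out it was 1.46, both settings chosen after seeing the data. In both, 0 of the 8 were called. The part of the bone mRNA in the result was not tested beyond these fits.

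**Figure D3:**
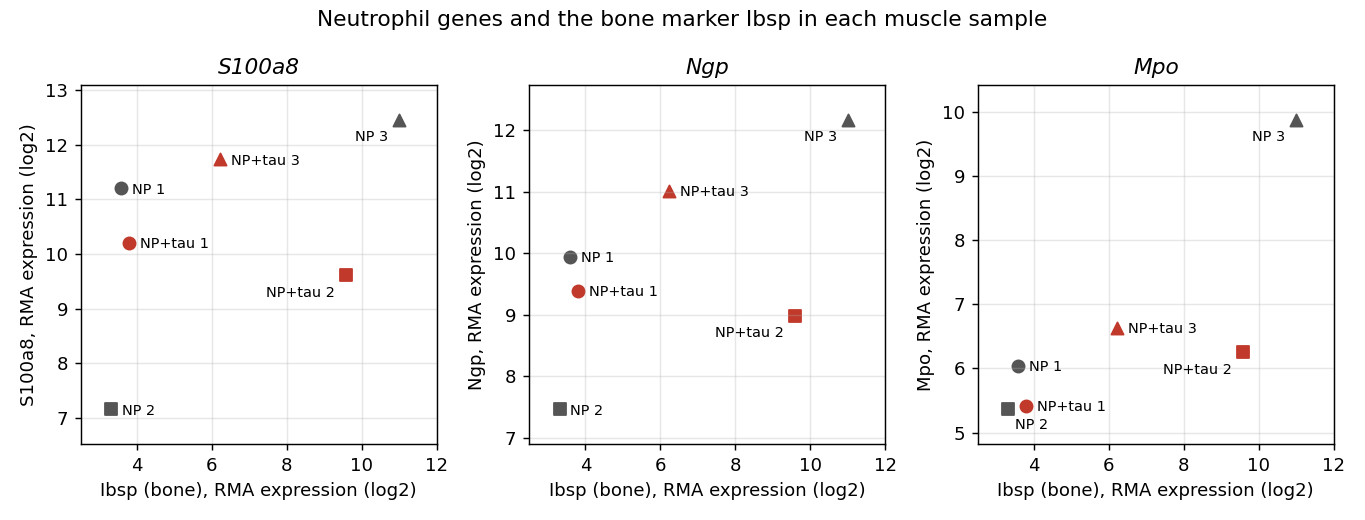
RMA expression (log2) of S100a8, Ngp and Mpo (vertical axes) against that of the bone gene Ibsp (horizontal axis) in the 6 muscles, 1 point per sample. NP+tau 2 has Ibsp at 9.58 with S100a8 at 9.61, while NP 3 is at the top right of each panel with Ibsp at 10.99, and NP 1 has Ibsp at 3.59 with S100a8 at 11.20.

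Muscle NP+tau 3, the second highest for S100a8, was instead rich in lymphocyte and red cell genes. Ms4a1, which encodes the B cell protein CD20, was at 8.86 in NP+tau 3 and between 3.76 and 4.03 in the other muscles. Hemgn, an erythroid nuclear protein, was at 4.69, 3.79 and 8.75 in NP+tau muscles and at 6.34, 4.40 and 4.53 in NP muscles. The B and plasma cell list averaged 5.29, 5.22 and 7.20 in NP+tau muscles and 5.10, 4.99 and 5.37 in NP muscles, with 7 of its 9 genes highest in NP+tau 3. The erythroid list averaged 5.47, 4.67 and 7.32 in NP+tau muscles and 6.20, 5.12 and 5.50 in NP muscles, with 7 of its 10 genes highest in NP+tau 3. Their part in the muscle values of the 8 genes was not tested. Ibsp, Col2a1, Ms4a1 and Hemgn in muscle were named after their values were seen.

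Of the 12 neutrophil receptor genes kept in liver, 8 were highest in NP 1. A difference below 0 was found for 9, against 54.2% of all probe sets kept. In 5 every NP+tau liver lay below every NP liver, against 9.11% of all probe sets. These values belong to the contrast that chose the 8 genes, and nothing is read from these counts. Fpr2, a formyl peptide receptor, was at 4.73, 4.86 and 5.10 in NP+tau livers and at 7.75, 5.22 and 5.91 in NP livers. Fcgr3, a receptor for IgG, was at 6.79, 5.99 and 6.51 in NP+tau livers and at 9.08, 7.47 and 7.63 in NP livers. Some receptors on this list, Fcgr3 among them, are also made by macrophages. Cxcr2 and Csf3r did not share this pattern. Cxcr2, the receptor for neutrophil-attracting chemokines, was at 5.13, 4.30 and 4.08 in NP+tau livers and at 4.52, 4.25 and 3.97 in NP livers. In muscle it lay between 3.72 and 4.35, under the filter limit of 4.49 in all 6. Csf3r, the receptor of the growth factor G-CSF, was at 6.07, 5.60 and 5.61 in NP+tau livers and at 6.01, 5.52 and 5.75 in NP livers. The liver highest for both was NP+tau 1, and not NP 1. In muscle Csf3r was highest in NP+tau 3 and next in NP 3 (4.78), the 2 muscles highest for S100a8, and it lay between 4.18 and 4.46 in the other 4. Ly6g and Cebpe were not matched to a probe set with a single symbol and are not analysed here.

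Of the 10 lists of the wider neutrophil pathway, 121 of 142 genes had a probe set with a single symbol. In muscle 93 were kept and 0 were called with limma, 3 being lower and 2 higher in NP+tau at an unadjusted p under 0.05, against 2.4% and 3.72% of all probe sets. The smallest adjusted p among them was 0.707, shared by several genes. Il1r2, a decoy receptor of interleukin 1, was at 4.54, 4.45 and 4.70 in NP+tau muscles and at 5.06, 4.99 and 4.96 in NP muscles, a difference of -0.44 (SE 0.14). Cbfb, the partner of the RUNX factors, was at 11.04, 10.65 and 11.02 in NP+tau muscles and at 10.04, 10.38 and 10.27 in NP muscles, a difference of 0.67 (SE 0.17). Both had groups that did not overlap and both had a limma adjusted p = 0.707. S100a1, a relative of the calprotectin genes that is expressed in muscle fibres, was at 9.14, 8.90 and 8.94 in NP+tau muscles and at 7.95, 8.39 and 8.72 in NP muscles, also with a limma adjusted p = 0.707.

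In liver, 104 genes of these lists were kept, and 23 had every NP+tau value below every NP value and 0 the reverse, against 9.11% and 5.73% of all probe sets. These values belong to the contrast that chose the 8 genes, and nothing is read from them. NP 1 was the highest liver for most of the other granule genes, but by little for some. Fcnb was at 5.39 in NP 1 and 5.31 in NP 2, and Itgb2l at 6.08 in NP 1 and 5.82 in NP+tau 1. Which cells of the liver made these mRNAs was not tested. Lcn2, the siderophore-binding lipocalin of specific granules, was at 5.98, 5.75 and 5.69 in NP+tau livers and at 11.53, 6.32 and 7.36 in NP livers. Chil3, a chitinase-like protein, was at 3.49, 4.26 and 3.68 in NP+tau livers and at 10.55, 4.61 and 4.64 in NP livers. NP 1 was the highest liver for 12 of 14 genes of the specific and gelatinase granule list and for 7 of 8 of the cytosol and NADPH oxidase list. The exceptions in the first list were Hp, highest in NP+tau 2, and Arg1, highest in NP 2. Prtn3 was at 5.66, 5.24 and 5.18 in NP+tau livers and at 7.26, 5.98 and 7.19 in NP livers, high in NP 1 and NP 3 as Mpo was.

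Of the 18 chemokines, cytokines and adhesion molecules that draw neutrophils, 9 were kept in liver, 4 of them highest in NP 1, 3 in NP 3 and 2 in NP+tau 1. Cxcl1 lay between 6.37 and 6.73 in NP+tau livers and between 6.82 and 6.87 in NP livers, with no overlap. Cxcl2 and Il6 lay under the filter limit in all 6. Il1b, interleukin 1 beta, was at 5.60, 5.36 and 4.88 in NP+tau livers and at 5.41, 5.78 and 5.95 in NP livers, where the groups overlapped. The adhesion molecule Icam1 was at 6.28, 6.44 and 6.20 in NP+tau livers and at 7.29, 6.94 and 6.96 in NP livers. Among the receptors that calprotectin is known to act through or with, Cd14, the lipopolysaccharide coreceptor, was at 6.13, 5.36 and 5.54 in NP+tau livers and at 9.10, 5.90 and 6.37 in NP livers. Of the 8 genes of this list kept, 4 were highest in NP 1, and the groups overlapped for all 8. Tlr4 and Ager did not share the course of Cd14. They were highest in NP+tau 1, with differences of -0.058 and 0.76. Of the 10 other S100 genes kept, 6 were highest in NP 1, and 5 differences were below 0 and 5 above. S100a6 was at 4.54, 4.21 and 4.32 in NP+tau livers and at 9.07, 4.81 and 4.27 in NP livers. S100a4 was at 4.55, 3.96 and 4.19 in NP+tau livers and at 7.62, 4.23 and 4.26 in NP livers. S100a1 was lowest in NP 1, at 10.58, 10.76 and 10.17 in NP+tau livers and at 9.34, 10.20 and 10.19 in NP livers.

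Liver NP 1 was also the highest liver for most genes of the acute phase response of hepatocytes. Saa1, serum amyloid A, was at 4.31, 4.54 and 5.95 in NP+tau livers and at 9.14, 6.24 and 6.19 in NP livers. Orm2, an orosomucoid, was at 4.80, 6.12 and 4.36 in NP+tau livers and at 9.93, 4.49 and 5.40 in NP livers. Of the 19 acute phase genes kept, 13 were highest in NP 1 and 4 in NP 3. A difference below 0 was found for 17, against 54.2% of all probe sets kept. In 8 every NP+tau liver lay below every NP liver, against 9.11% of all probe sets. Nothing is read from these counts. Stat3 was at 9.59, 9.35 and 9.62 in NP+tau livers and at 10.46, 10.16 and 10.29 in NP livers, apart without NP 1 as well. Saa4 and Crp, the 2 genes above 0, were lowest in NP 1 (7.44 and 10.23). Their part in the liver values of the 8 genes was not tested, and Saa1 and Orm2 were named after their values were seen.

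Macrophage genes and most platelet genes were lower in NP+tau livers too. All 17 macrophage and Kupffer cell genes had a difference below 0, with a median of -1.18 against -0.039 over all probe sets. Marco, a scavenger receptor of Kupffer cells, was at 7.99, 6.91 and 8.22 in NP+tau livers and at 10.26, 9.23 and 9.77 in NP livers. Of the 8 platelet genes kept, 7 had a difference below 0, with a median of -0.62, and 4 had no overlap with NP+tau lower. Treml1 was above 0, at 0.14. Of all probe sets kept, 54.2% were below 0 and 9.11% had no overlap with NP+tau lower, and nothing is read from these counts. Pf4, platelet factor 4, was at 5.91, 6.21 and 6.73 in NP+tau livers and at 9.75, 7.82 and 8.82 in NP livers. For Marco and Pf4, NP 2 and NP 3 also lay clear of the NP+tau livers, so the groups were apart without NP 1 as well. The macrophage list averaged 8.39, 7.57 and 8.36 in NP+tau livers and 9.80, 8.80 and 9.09 in NP livers. The erythroid list averaged 5.24, 4.95 and 5.12 in NP+tau livers and 6.33, 5.22 and 5.63 in NP livers. All 10 proliferation genes kept were highest in NP 1. Bone and cartilage and B cell genes were not high in NP 1, and their highest liver was NP+tau 1, at means of 5.85 and 5.63. The part of these cell types in the liver values was not tested.

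**Figure D4:**
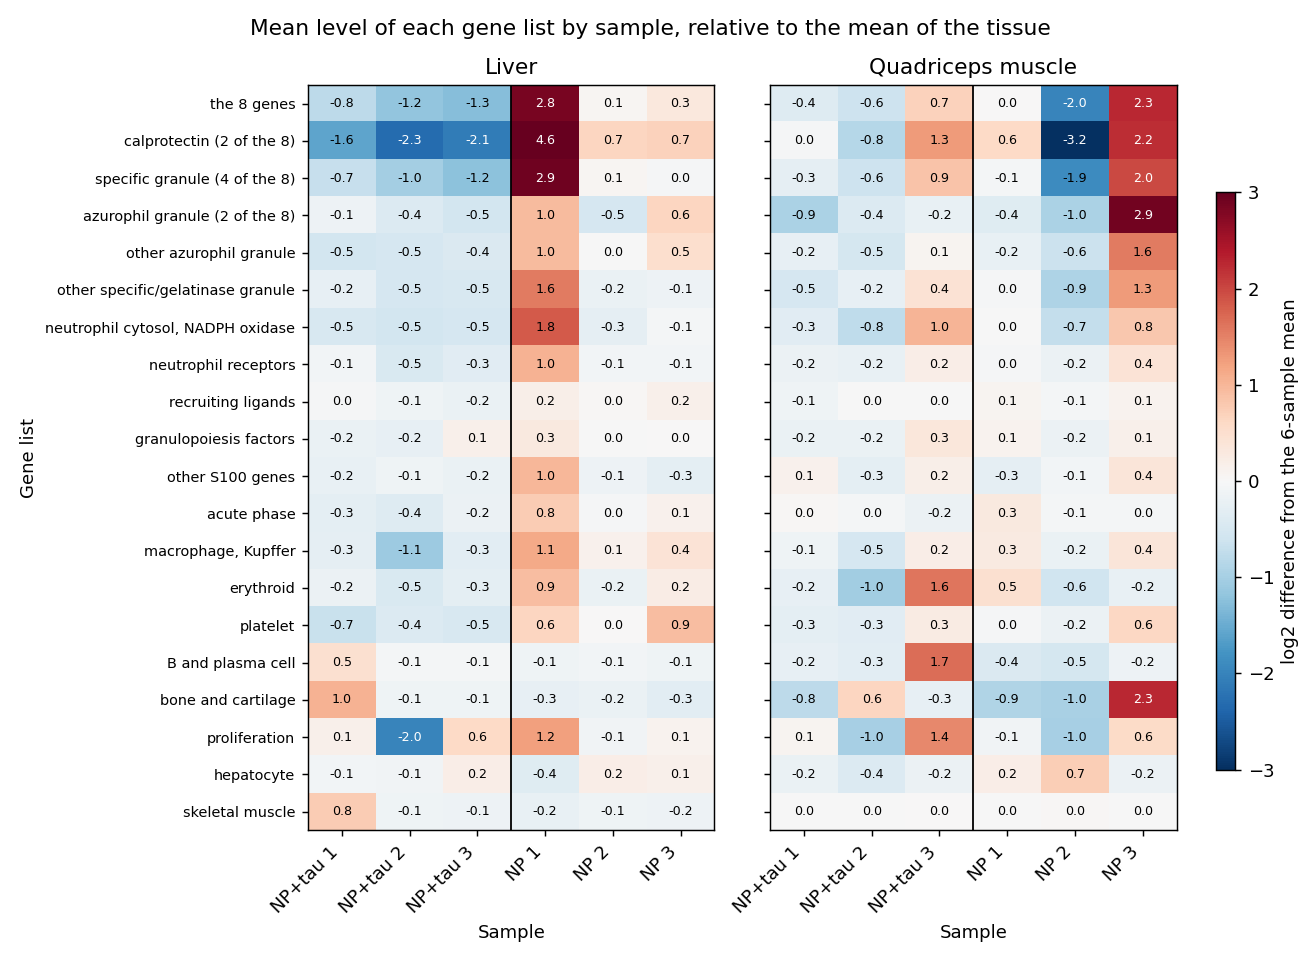
Mean log2 level of each gene list (rows) in each sample (columns, NP+tau left of NP), as the difference from the mean of the 6 samples of the tissue, over the genes kept. Red is above and blue below that mean, with colours saturated beyond 3. The 8 genes stand highest in liver NP 1 (mean 9.19) and in muscle NP 3 (10.09), where the bone and cartilage list is highest as well (7.80), while the mean of the recruiting ligands stays near 0.

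Genes whose pattern was most like the mean of the 8 were ranked by Pearson's r over the 6 samples of a tissue, as a description. In liver, of 14268 genes, Gipc2, Vsir, Fcgr1, Iqgap1, Ccn1, Pdgfrb, Pbxip1 and Otulinl came first, with r between 0.990 and 0.998 and between 0.951 and 0.990 without NP 1. Fcgr1, a high-affinity receptor for IgG, was at 5.99, 5.81 and 5.94 in NP+tau livers and at 8.26, 6.57 and 6.87 in NP livers. In muscle, of 13821 genes, Lamtor1, Gucy1a1, Rps4l, Id4, Plac8, Thbs2, St7 and Nagk came first, with r between 0.960 and 0.983 and between 0.926 and 0.967 without NP 3. Plac8, which is expressed in myeloid cells, had the widest range of these, at 5.76, 5.64 and 7.72 in NP+tau muscles and at 6.65, 4.82 and 8.45 in NP muscles. Lamtor1 followed the shape of the 8 genes over a range of only 0.18. The 2 sets of genes had no gene in common.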

How the data were processed

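The deposited log2 values were made by the authors from the scanned arrays with quantile normalisation and RMA summary (justRMA), each tissue apart, and no probe set had been removed from them. Here 64 control probe sets were left out, and probe sets whose highest value in a tissue was under the 35th percentile of such values were dropped (29274 kept in each, limits 4.60 in liver and 4.49 in muscle). Symbols came from the platform annotation: 34958 probe sets had 1 symbol, 932 several and 9211 none, and only the first were named. Genes of the lists were read from their brightest such probe set.

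Within a tissue, NP+tau was set against NP with limma 3.58.1 (lmFit, then eBayes; R 4.3.3), two-sided, with Benjamini-Hochberg adjustment over all probe sets kept and a threshold of 0.05. The fit was tested on simulated data for the size of its estimates. Nothing is read from this test on how often a true change is missed. Log2 differences are NP+tau minus NP. Correlations are descriptions and have no test.

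The 8 genes and all lists were chosen with earlier results of these data known. Named are the 8 genes, up to 4 genes of each other list with the smallest unadjusted p in a tissue, defining markers, and the 8 genes per tissue most like the mean of the 8. Other genes named were chosen after their values were seen. Not every gene this rule gives is printed. Promoters came from RefSeq (GRCm38.p6) and all 8 genes matched. Arrays give no read depth, so their number (3 per group) limits the precision. Tables were made in Python 3.11.15 with pandas 2.3.3, and figures with matplotlib 3.10.9. Alternatives were the filter, an intensity trend, array weights, median centring, the Xist level as a covariate, a replicate block, another threshold (0.1) and leaving out samples.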

Additional observations from a re-analysis of the deposited data

How the results depend on the processing

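In muscle, 0 of the 8 genes were called in all 17 alternatives run. The liver median difference stayed below 0 (-2.50 to -1.09 with 1 sample left out, -1.98 to -1.56 in the other settings), and 5 to 7 genes had no overlap with NP+tau lower. Mmp8 in liver ranged from -1.29 to 0.10 with 1 sample left out, and it had no value without NP 1 and NP+tau 1, where it did not pass the filter and the median is over the other 7 genes. In muscle the median ranged from -1.29 to 1.09 with 1 sample left out, the ends being without NP 2 and without NP 3. The count of genes with no overlap in muscle ranged from 0 to 1 in this way, and was 1 with NP 3 and NP+tau 2 both left out. With 1 sample left out, the muscle differences of all genes but Elane crossed 0. Their ranges were -1.31 to 1.34 (S100a8), -1.23 to 1.52 (S100a9), -1.17 to 1.08 (Camp), -1.26 to 1.10 (Ngp), -1.33 to 1.17 (Ltf), -0.13 to 0.52 (Mmp8) and -1.86 to 0.40 (Mpo). Elane stayed below 0, from -1.71 to -0.12. Signs also turned with array weights for Camp (0.33), Ngp (0.54) and Ltf (0.56), with the Xist covariate for S100a8 (-0.033), without NP 1 and NP+tau 1 for Ngp (0.19), and without NP 3 and NP+tau 2, chosen after seeing the data, for Camp (1.41), Ngp (1.50), Ltf (1.58) and Mpo (0.33). The cause was not tested. The deviations of same-numbered samples had r of 0.016, -0.11 and 0.11 in liver and of -0.21, -0.27 and 0.33 in muscle. The highest was that of muscle replicate 3, and the sign was not the same throughout. With the replicate block the medians stayed at -1.98 in liver and -0.074 in muscle, where 0 of the 8 were called. Over all probe sets, 0 were called in either tissue, against 0 to 10 in the other liver settings (9 without NP+tau 1) and 0 to 8 in muscle (8 without NP+tau 1), and 9449 in liver with the Xist covariate, a fit that sets the array standing apart, NP+tau 1, against NP. Dim values lie nearer the array background, which can limit the size of a difference, and this was not tested. Mmp8 lay near or under the filter limit in most samples. Elane lay between 4.90 and 5.62 in liver, above the limit of 4.60. NP+tau livers were as dim for Camp (4.63 to 5.27), Ltf (4.93 to 5.23) and Mpo (4.58 to 5.15).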
